A study of Homo sapiens with 12 samples.

Results

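NRF2, the transcription factor encoded by NFE2L2, and 8 genes tied to it were followed in oesophageal squamous carcinoma cells after an siRNA against ANLN, which encodes the cytoskeletal scaffold protein anillin. The 9 genes were chosen by name and matched to the gene names of the tables: NFE2L2, its inhibitor KEAP1, and the antioxidant genes GCLC, GCLM, TXNRD1, SRXN1, NQO1, HMOX1 and AKR1C1. They are 9 of 58735 gene IDs in the 24 h table and 9 of 38318 in the 48 h table. The cells were KYSE150, a commercial human oesophageal squamous cell carcinoma line. The 4 groups were cells given siRNA to ANLN for 24 h (siANLN, labelled as ANLN knockdown), cells given the negative control siRNA for 24 h (siNC, labelled wild type), and the same siANLN and siNC treatments for 48 h, with 3 libraries in each. All 12 libraries were paired-end poly(A) RNA-seq of 1 cell line, and the labels name no second siRNA against ANLN and no untransfected cells. The labels call the libraries of a group biological replicates. Whether each came from a separate culture was not tested here, so p-values measure the spread between these libraries.

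In unstressed cells KEAP1, working with the ubiquitin ligase scaffold CUL3, holds NRF2 and sends it for degradation. Oxidants and electrophiles modify KEAP1, NRF2 then accumulates in the nucleus, pairs with a small MAF protein and binds antioxidant response elements, while BACH1 competes for the same elements as a repressor. The pathway is often mutated in squamous cancers of the oesophagus and lung, and since NRF2 is controlled mainly as a protein, its mRNA is not a measure of its activity.

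The antioxidant response element was looked for as its core, TGACNNNGC, on both strands of the 250 bases before each RefSeq gene start (GRCh38.p14), because several of the genes have been described as NRF2 targets through such elements. A window was listed for 8 of the 9 genes, and 3 of the 8 held the core: GCLM, KEAP1 and TXNRD1. For comparison, the core was present for 3609 of 27305 genes (13.2%). The stretches around these matches are shown 5′ to 3′ on the strand of the gene with the matches in capitals. A match read from the other strand appears as GCNNNGTCA.
GCLM, chr1:93909431-93909504, minus strand, match 34 bases before the start: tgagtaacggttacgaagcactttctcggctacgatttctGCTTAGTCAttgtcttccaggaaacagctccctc
KEAP1, chr19:10502772-10502865, minus strand, matches 54 and 31 bases before the start: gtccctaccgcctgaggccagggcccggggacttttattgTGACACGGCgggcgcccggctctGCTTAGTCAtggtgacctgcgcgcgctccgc
TXNRD1, chr12:104215640-104215728, plus strand, match 99 bases before an upstream start: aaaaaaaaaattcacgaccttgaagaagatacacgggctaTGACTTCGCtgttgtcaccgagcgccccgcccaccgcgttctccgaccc
TXNRD1, chr12:104286890-104286978, plus strand, match 102 bases before a downstream start: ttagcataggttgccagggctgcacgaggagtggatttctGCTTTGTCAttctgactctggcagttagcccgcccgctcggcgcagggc
Such a match describes letters and is not a measured binding site. The windows listed for NFE2L2, GCLC, SRXN1, NQO1 and AKR1C1 did not hold these letters, and elements farther from a start were not searched.

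Library totals were 14891932 to 17921808 counts at 24 h and 11805488 to 12448411 counts at 48 h. ANLN mRNA averaged 104 ± 6.12 CPM in siANLN cells and 892 ± 17.0 CPM in siNC cells at 24 h, and 80.8 ± 5.36 CPM in siANLN cells and 731 ± 8.09 CPM in siNC cells at 48 h (SD, n = 3 libraries each), so 11.6% and 11.1% of the siNC level were left. CPM are counts scaled to library size, with TMM factors. Of the squamous carcinoma cell markers, KRT5, KRT14, KRT6A, KRT17, TP63, DSG3 and EPCAM were detected, while SOX2 had 8 counts or fewer in every 48 h library. The 8 markers summed to 2848 to 2947 CPM in siANLN libraries and 3566 to 3819 CPM in siNC libraries at 24 h, and to 2191 to 2245 CPM in siANLN libraries and 4679 to 4874 CPM in siNC libraries at 48 h. This fall of the squamous sum, mostly keratins, ran beside the changes described here, and its part in them was not tested. Not every marker fell. At 24 h the log2 change of siANLN over siNC was -0.03 for TP63, -0.11 for DSG3 and 0.02 for EPCAM (edgeR adjusted p = 0.76, 0.22 and 0.87). At 48 h TP63 and DSG3 were lower (-0.43 and -0.37, edgeR adjusted p = 6.1e-35 and 8.9e-16). EPCAM was higher at 48 h (0.15, edgeR adjusted p = 1.4e-04). The leukocyte list (PTPRC, CD3E, CD68 and LYZ in the 48 h table) summed to 64.0 to 64.4 CPM in siANLN libraries and 35.5 to 41.3 CPM in siNC libraries at 48 h. Nearly all of that was CD68, and PTPRC, the defining leukocyte gene, had at most 1 count in any 48 h library. At 24 h the leukocyte list summed to 0.39 to 1.14 CPM in siANLN libraries and 0.67 to 0.71 CPM in siNC libraries. CD68 had 5 counts or fewer in every 24 h library and 413 to 783 counts in the 48 h libraries. The part of the counting in this step was not tested. The fibroblast list summed to 9.52 to 11.8 CPM in siANLN libraries and 18.7 to 20.02 CPM in siNC libraries at 48 h, nearly all COL1A1, with COL1A2 at 0. The labels name 1 cell line and no other cell type, so these lists describe RNA levels and do not count cells of a type. In bulk RNA, fewer cells with a given mRNA and less of it per cell cannot be told apart.

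After 24 h of siANLN, NRF2 mRNA and 6 of its tested antioxidant genes were lower, and KEAP1 mRNA was not called. Of the 9 genes, 8 had enough counts to be tested at 24 h. Of these, 7 were called, all of them lower, by edgeR's quasi-likelihood test at a Benjamini-Hochberg adjusted p under 0.05, where 10.8% of all 14698 tested genes were called and 4.86% were called lower. After 48 h all 8 tested genes were called lower, where 43.6% of all 16994 tested genes were called and 21.3% were called lower. The falls were of modest size: the called genes stood at 65.8% to 90.9% of the siNC level at 24 h and at 62.8% to 83.9% at 48 h. The median log2 change of the 8 genes was -0.34 at 24 h and -0.32 at 48 h, beside -0.01 and -0.00 over all genes tested.

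**Figure D1:**
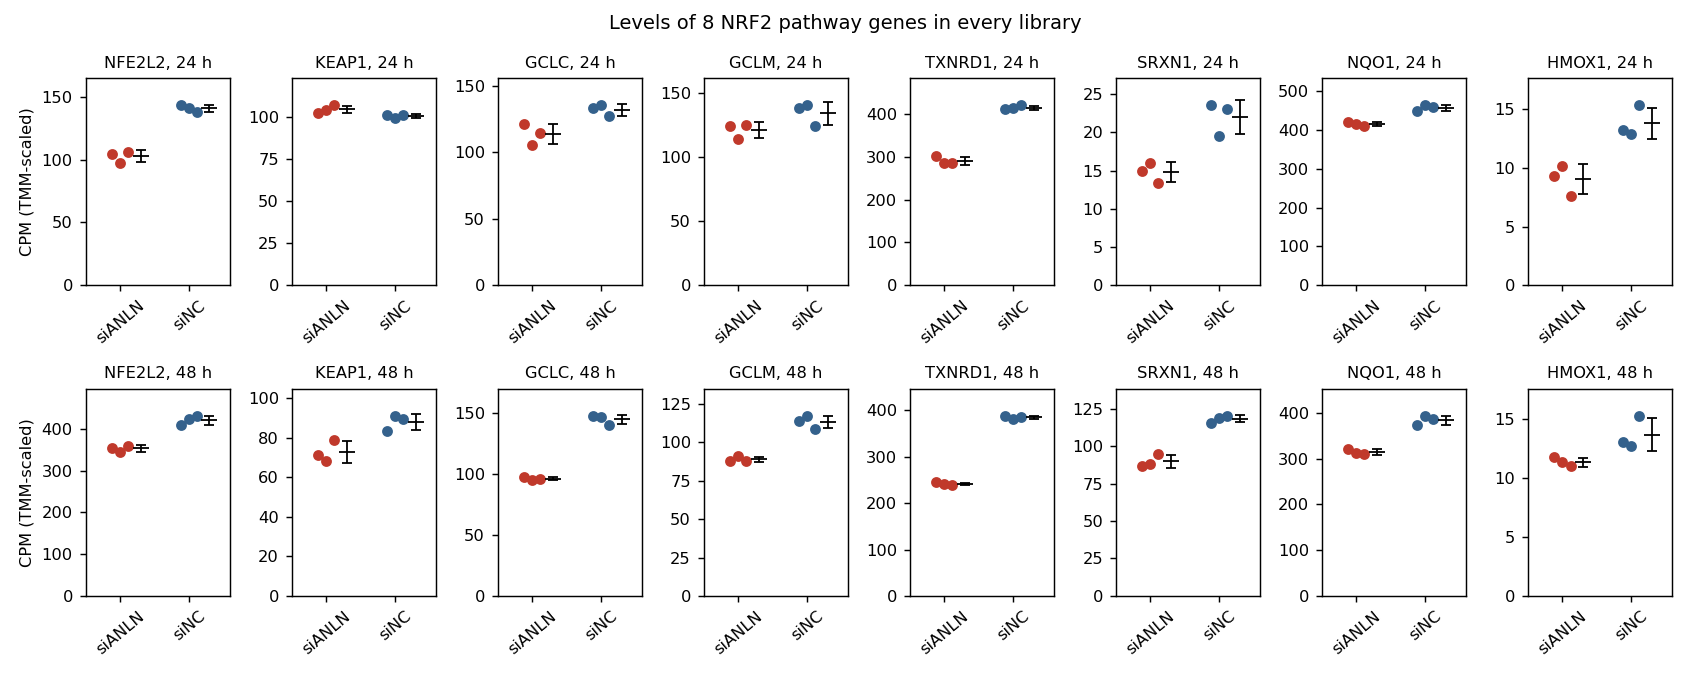
Level of each tested NRF2 pathway gene in every library, in TMM-scaled CPM on axes that start at 0, at 24 h (upper row) and 48 h (lower row), with siANLN libraries in red and siNC libraries in blue and the mean ± SD of 3 libraries in black. At 48 h the 3 siANLN libraries lie under the 3 siNC libraries for all 8 genes, while at 24 h KEAP1 is higher in siANLN and GCLM overlaps.

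NFE2L2 (ENSG00000116044, GRCh38 chr2:177227595-177392697, minus strand) encodes the transcription factor itself. At 24 h its mRNA stood at 104, 97.5 and 107 CPM in siANLN libraries, against 143, 141 and 138 CPM in siNC libraries. Its 48 h levels were 356, 345 and 360 CPM in siANLN libraries, against 410, 424 and 431 CPM in siNC libraries. The groups did not overlap at either time, and the siNC libraries were the higher ones. The log2 change was -0.46 ± 0.04 at 24 h (SE, edgeR adjusted p = 1.0e-13) and -0.25 ± 0.03 at 48 h (edgeR adjusted p = 8.2e-19). The fall in NFE2L2 counts was smaller at 48 h: the change at 48 h minus that at 24 h was 0.22 ± 0.05 on the log2 scale (edgeR test of the difference, adjusted p = 7.4e-04). In siNC libraries the NFE2L2 level was 2.99 times as high in the 48 h table in CPM but 1.199 times as high in FPKM. FPKM are scaled to length, so the length used for NFE2L2 differed between the tables. The part of this in the difference between the times was not tested. AGPS lies across NFE2L2 on the opposite strand, and the strand setting of the counting is not given in the sources used here.

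KEAP1 (ENSG00000079999, GRCh38 chr19:10486120-10503741, minus strand), the adaptor that hands NRF2 to the CUL3 ligase, was the one tested gene not called lower at 24 h. It stood at 102.5, 104 and 107 CPM in siANLN libraries and at 101.6, 99.4 and 101.2 CPM in siNC libraries at 24 h. The libraries of the groups lay close together, with every siANLN library slightly above every siNC library. The log2 change at 24 h was 0.06, with a 95% interval of -0.03 to 0.15 (edgeR adjusted p = 0.53). At 48 h KEAP1 stood at 71.2, 68.2 and 79.2 CPM in siANLN libraries and at 83.7, 91.0 and 89.7 CPM in siNC libraries. Every siANLN library was now below every siNC library, and the log2 change was -0.27 ± 0.05 (edgeR adjusted p = 3.4e-08). The difference between the times was -0.32 ± 0.07 on the log2 scale (edgeR adjusted p = 2.1e-04).

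Both subunits of glutamate-cysteine ligase, the first and rate-limiting enzyme of glutathione synthesis, were lower in siANLN cells, by more at 48 h than at 24 h. GCLC (ENSG00000001084, GRCh38 chr6:53497341-53616970, minus strand) encodes the catalytic subunit. It stood at 121, 106 and 114 CPM in siANLN libraries and 134, 135 and 127 CPM in siNC libraries at 24 h, a log2 change of -0.22 ± 0.04 (edgeR adjusted p = 2.2e-04). At 48 h it stood at 97.4, 94.9 and 95.9 CPM in siANLN libraries and 147, 146 and 140 CPM in siNC libraries, a log2 change of -0.59 ± 0.04 (edgeR adjusted p = 7.3e-40). The groups did not overlap at either time, and the 48 h siANLN libraries lay close together well under their controls. GCLM (ENSG00000023909, GRCh38 chr1:93885205-93909456, minus strand) encodes the modifier subunit, which eases feedback inhibition of the enzyme by glutathione. It stood at 124.4, 114 and 125 CPM in siANLN libraries and 139, 141 and 124.3 CPM in siNC libraries at 24 h. One siNC library was level with the upper siANLN libraries, so the groups overlapped, and the log2 change was -0.15 ± 0.04 (edgeR adjusted p = 0.015). At 48 h GCLM stood at 88.1, 90.9 and 88.2 CPM in siANLN libraries and 114, 117 and 109 CPM in siNC libraries, without overlap. The log2 change at 48 h was -0.35 ± 0.04 (edgeR adjusted p = 8.6e-15).

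The change at 48 h minus that at 24 h was -0.36 ± 0.06 for GCLC (edgeR adjusted p = 2.6e-06) and -0.18 ± 0.06 for GCLM (edgeR adjusted p = 0.039) on the log2 scale. The GCLM call at 24 h was lost with DESeq2 (adjusted p = 0.085) and when siNC replicate 1 (edgeR adjusted p = 0.10), siNC replicate 2 (0.14) or siANLN replicate 2 (0.18) was left out, within a range of 6.9e-04 to 0.21 over all alternatives. The GCLC call at 24 h was lost with limma on the deposited FPKM (adjusted p = 0.072 with a pseudocount of 0.1 and 0.075 with a pseudocount of 1), within a range of 9.9e-06 to 0.075 over its alternatives.

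TXNRD1 (ENSG00000198431, GRCh38 chr12:104215779-104350305, plus strand) encodes the cytosolic thioredoxin reductase, which uses NADPH to recycle thioredoxin. It stood at 301, 285 and 285 CPM in siANLN libraries and 411, 413 and 420 CPM in siNC libraries at 24 h. At 48 h it stood at 245, 241 and 240 CPM in siANLN libraries and 388, 382 and 385 CPM in siNC libraries. The gap between the groups was many times the spread within them at both times. The log2 change was -0.51 ± 0.04 at 24 h (edgeR adjusted p = 3.0e-20) and -0.67 ± 0.03 at 48 h (edgeR adjusted p = 1.3e-76), which left 70.0% and 62.8% of the siNC level. The difference between the times was -0.14 ± 0.04 on the log2 scale (edgeR adjusted p = 0.018). RPL18AP3, a processed pseudogene on the strand of TXNRD1 that overlaps it, had 914 to 1114 counts per library at 24 h and 166 to 217 at 48 h. The part of the counting in the TXNRD1 difference was not tested.

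SRXN1 (ENSG00000271303, GRCh38 chr20:646615-653370, minus strand) encodes sulfiredoxin, which repairs peroxiredoxins after overoxidation. It stood at 14.9, 16.1 and 13.4 CPM in siANLN libraries and 23.5, 19.5 and 23.1 CPM in siNC libraries at 24 h. In the 48 h table it stood at 86.6, 87.8 and 94.8 CPM in siANLN libraries and 116, 119 and 120 CPM in siNC libraries. All siANLN libraries were below all siNC libraries of their time. The log2 change was -0.57 ± 0.10 at 24 h (edgeR adjusted p = 5.3e-06) and -0.40 ± 0.04 at 48 h (edgeR adjusted p = 5.9e-19). The difference between the times, 0.19 on the log2 scale with a 95% interval of -0.003 to 0.38, was not called (edgeR adjusted p = 0.22). The SRXN1 level in siNC libraries was 5.36 times as high in the 48 h table as in the 24 h table in CPM, and that of NFE2L2 was 2.99 times as high in CPM but 1.199 times as high in FPKM. AL121758.1, a gene on the strand of SRXN1 that overlaps it, had 0 to 7 counts per library at 24 h and 1009 to 1434 at 48 h. The tables were made separately, so levels are compared within a time only, and the part of the counting in these steps was not tested.

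NQO1 (ENSG00000181019, GRCh38 chr16:69706996-69726951, minus strand) encodes a quinone reductase widely used as a readout of NRF2 output. It stood at 420, 417 and 410 CPM in siANLN libraries and 449, 464 and 461 CPM in siNC libraries at 24 h. By 48 h it stood at 322, 312 and 311 CPM in siANLN libraries and 374, 393 and 386 CPM in siNC libraries. The gaps were small beside the level, yet no siANLN library reached a siNC library at either time. The log2 change was -0.14 ± 0.03 at 24 h (edgeR adjusted p = 0.0024) and -0.29 ± 0.03 at 48 h (edgeR adjusted p = 2.1e-22), and the difference between the times was -0.14 ± 0.04 (edgeR adjusted p = 0.023).

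HMOX1 (ENSG00000100292, GRCh38 chr22:35380361-35394214, plus strand) encodes haem oxygenase 1, which opens haem and is held down by BACH1 when haem is low. It stood at 9.35, 10.2 and 7.64 CPM in siANLN libraries and 13.2, 12.9 and 15.3 CPM in siNC libraries at 24 h. At 48 h it stood at 11.7, 11.3 and 10.97 CPM in siANLN libraries and 13.1, 12.7 and 15.2 CPM in siNC libraries. The siANLN libraries were the lower ones at both times, and at 48 h siNC replicate 3 stood above the other controls. The log2 change was -0.60 ± 0.12 at 24 h (edgeR adjusted p = 1.3e-04) and -0.27 ± 0.11 at 48 h (edgeR adjusted p = 0.030). The difference between the times, 0.35 on the log2 scale with a 95% interval of 0.03 to 0.67, was not called (edgeR adjusted p = 0.16). The 48 h call was lost with DESeq2 (adjusted p = 0.20) and with no filter on low counts (edgeR adjusted p = 0.075), within a range of 0.013 to 0.23 over all alternatives. It was also lost without siNC replicate 3 (edgeR adjusted p = 0.23), siANLN replicate 2 (0.063) or siANLN replicate 3 (0.092).

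AKR1C1 (ENSG00000187134, GRCh38 chr10:4963253-4983283, plus strand), an aldo-keto reductase that is often among the most abundant NRF2 targets in tumours with an active pathway, was almost silent here. It had 4, 12 and 5 counts in siANLN libraries and 6, 1 and 0 counts in siNC libraries at 24 h. At 48 h it had 7, 3 and 4 counts in siANLN libraries and 1, 1 and 2 counts in siNC libraries. Most of these sit at or near the floor of 3 counts per library that a reading of 0 allows, so no fold is given, and the gene did not pass the filter on low counts at either time. Its coding sequence is 98% identical to that of AKR1C2 and 91.8% identical to that of AKR1C3, and reads from the 3 can be confused. Their summed counts were 14, 20 and 16 in siANLN libraries and 19, 15 and 6 in siNC libraries at 24 h, and 18, 4 and 12 in siANLN libraries and 10, 12 and 9 in siNC libraries at 48 h, with edgeR adjusted p = 0.60 and 0.82.

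**Figure D2:**
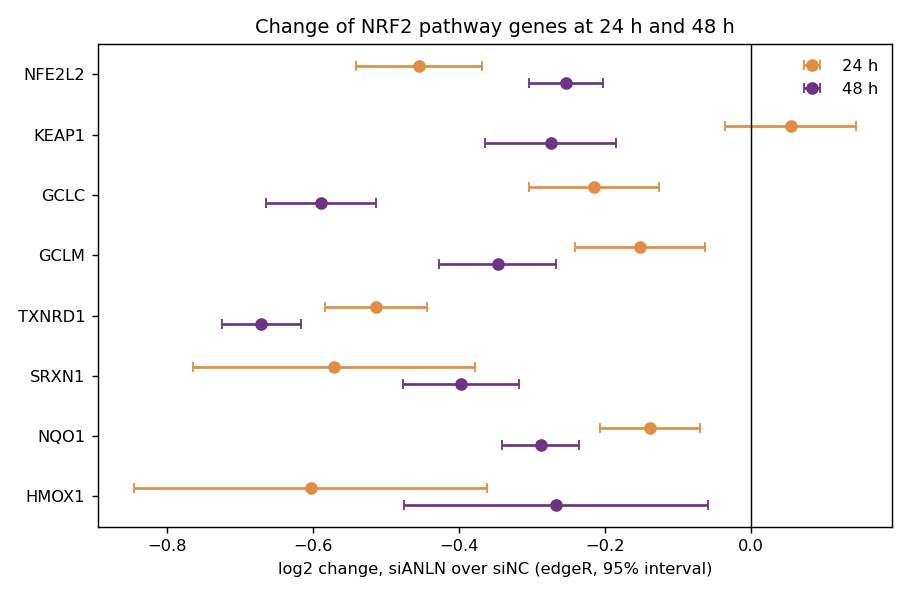
Log2 change of siANLN over siNC for each tested gene with its 95% interval, at 24 h (orange) and 48 h (purple), where 0 means no difference. KEAP1 lies at 0.06 at 24 h and -0.27 at 48 h, GCLC and TXNRD1 lie lower at 48 h than at 24 h, and NFE2L2 lies lower at 24 h than at 48 h.

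The step from 24 h to 48 h was not the same for all genes, as the plot of log2 changes at both times shows. The difference between the times was called for 6 of the 8 genes, where it was called for 13% of 17625 genes tested in all 12 libraries. KEAP1, GCLC, GCLM, TXNRD1 and NQO1 were further down at 48 h. NFE2L2 was the only called gene that was less far down at 48 h. Its length in the FPKM differed between the tables, and the part of this in its difference was not tested. The number of genes called was 3 with no filter on low counts and 3 without siANLN 48 h replicate 3, and the calls of GCLM, TXNRD1 and NQO1 were the ones lost. In single-library omissions, the GCLM call was lost without siNC 24 h replicate 3, siANLN 24 h replicates 1 or 3, siNC 48 h replicates 1 or 2, or any siANLN 48 h replicate (edgeR adjusted p = 0.051 to 0.18). The NQO1 call was lost without siNC 24 h replicate 1, siNC 48 h replicates 2 or 3, or siANLN 48 h replicates 2 or 3 (0.058 to 0.10), and the TXNRD1 call without siANLN 24 h replicate 1 (0.086) or siANLN 48 h replicate 3 (0.053).

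At 24 h, 6 of the 7 genes called lower had siANLN libraries that all lay under the siNC libraries, as did 12.5% of all tested genes, and at 48 h all 8 did, as did 24.5% of all tested genes. Ranked among all tested genes by log2 change, HMOX1, SRXN1, TXNRD1 and NFE2L2 stood at the 1.73, 2.05, 2.75 and 3.63 percentiles from the lowest at 24 h. GCLC, GCLM, NQO1 and KEAP1 stood higher at 24 h, at the 12.3, 18.5, 20.2 and 66.8 percentiles. At 48 h, TXNRD1 stood at the 4.64 and GCLC at the 6.13 percentile, and the other 6 lay between the 11.7 and 20.1 percentiles. A given rank takes a larger change at 48 h, when many more genes were called.

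**Figure D3:**
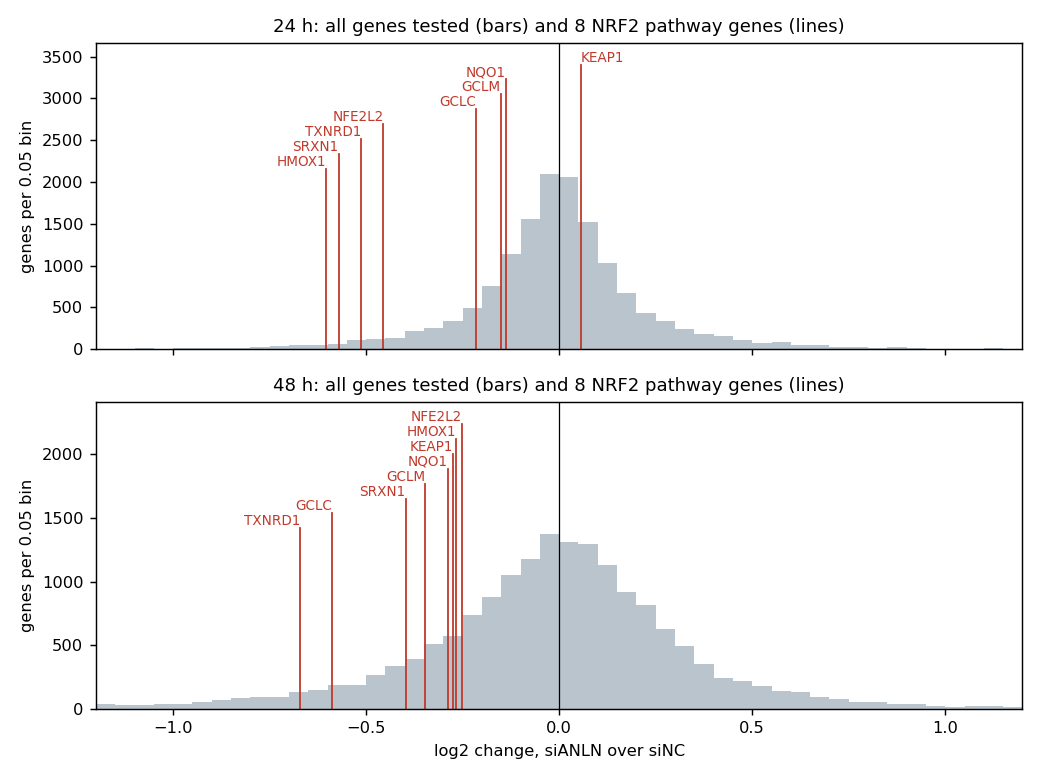
Number of tested genes per bin of 0.05 in log2 change of siANLN over siNC (grey bars) at 24 h and 48 h, for changes between -1.2 and 1.2, with red lines at the 8 tested NRF2 pathway genes. At 24 h HMOX1, SRXN1, TXNRD1 and NFE2L2 lie in the lower tail between -0.60 and -0.46. GCLC, GCLM, NQO1 and KEAP1 lie between -0.22 and 0.06 at that time. At 48 h the distribution is wider and all 8 genes lie between -0.67 and -0.25.

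Levels of different genes were compared per length, in the FPKM the authors deposited. NQO1 was the most abundant of the 9 genes, at 129 ± 1.46 FPKM in siANLN cells and 142 ± 2.44 FPKM in siNC cells at 24 h, and 104 ± 2.22 FPKM in siANLN cells and 131 ± 3.21 FPKM in siNC cells at 48 h (SD, n = 3 each). TXNRD1 came second in all 4 groups, at 43.5 ± 1.35 FPKM in siANLN cells and 62.2 ± 0.64 FPKM in siNC cells at 24 h. At 24 h KEAP1, GCLM, NFE2L2, GCLC, SRXN1 and HMOX1 followed in that order in both groups, and GCLM and NFE2L2 overlapped in siNC libraries. At 48 h the order after TXNRD1 was SRXN1, NFE2L2, KEAP1, GCLM, GCLC and HMOX1 in both groups. SRXN1, at 35.0 ± 1.69 FPKM, overlapped TXNRD1, at 35.5 ± 0.40 FPKM, in siANLN libraries at 48 h. HMOX1 was low throughout, at 3.79 ± 0.54 FPKM in siANLN cells and 5.78 ± 0.55 FPKM in siNC cells at 24 h, and AKR1C1 was last, at 0.08 FPKM or less in every library.

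**Figure D4:**
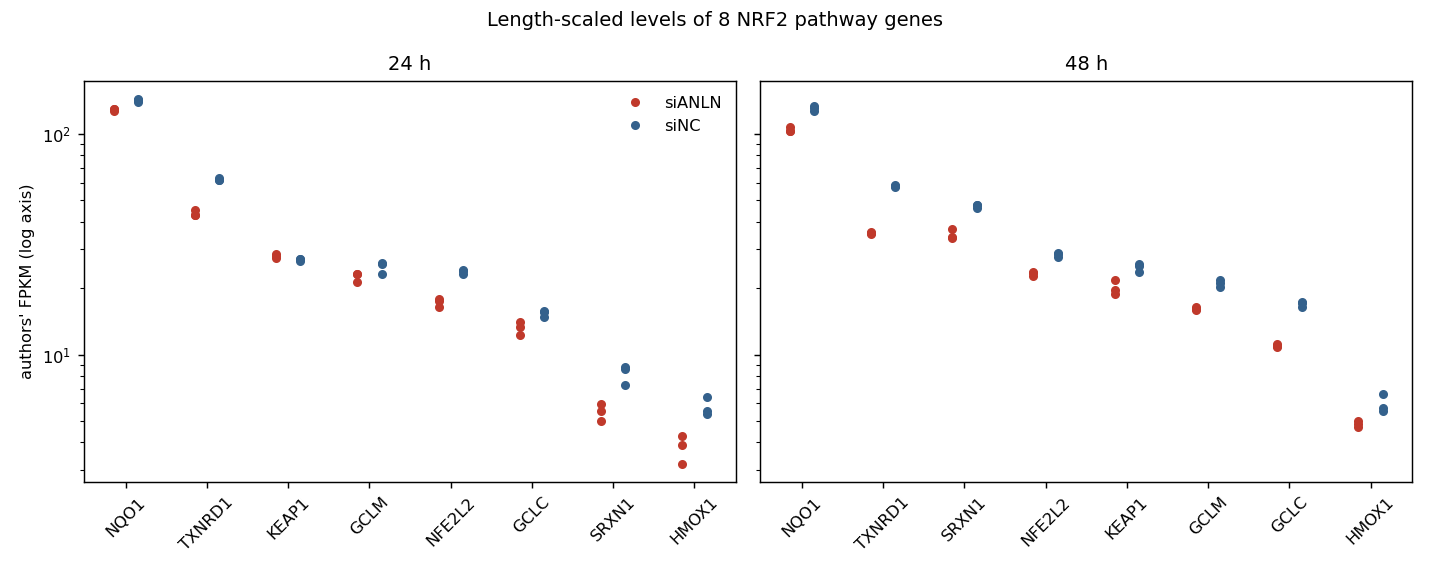
Deposited FPKM of the 8 tested genes in each library on a log axis, ordered by the mean within each time, with siANLN libraries in red left of siNC libraries in blue. NQO1 lies above 100 FPKM in every library and HMOX1 below 7 FPKM, and SRXN1 is the seventh at 24 h and the third at 48 h.

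A wider list of 55 genes of the pathway, set out by role, was read from the same fits. At 24 h, 47 of them were tested: 12 were called lower, 3 higher and 32 not called, with a median log2 change of -0.07. At 48 h, 46 were tested: 21 were called lower, 8 higher and 17 not called, with a median of -0.13. For all genes tested, 4.86% were called lower and 5.93% higher at 24 h, and 21.3% lower and 22.2% higher at 48 h. Of the list, 9 genes were lower at both times, 3 were higher at both, and MAFK was lower at 24 h and higher at 48 h.

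Of the 10 regulators and partners of NRF2, 2 were higher and 2 lower at 24 h, and the 5 called at 48 h were higher. Over all tested genes, 5.93% were called higher and 4.86% lower at 24 h, and 22.2% higher and 21.3% lower at 48 h. BACH1, the competing repressor, stood at 56.1, 54.6 and 59.7 CPM in siANLN libraries and 46.7, 51.7 and 51.2 CPM in siNC libraries at 24 h, with log2 changes of 0.19 at 24 h (edgeR adjusted p = 0.027) and 0.19 at 48 h (edgeR adjusted p = 5.9e-04). BACH1 was called higher at the times when NFE2L2 was called lower, although the BACH1 call at 24 h was lost with DESeq2 (adjusted p = 0.097). NFE2L1, a relative of NRF2 known for proteasome gene control, was also higher, by 0.22 at 24 h and 0.31 at 48 h on the log2 scale. MAFF, a small MAF partner, stood at 43.9, 43.8 and 45.03 CPM in siANLN libraries and 28.5, 26.9 and 27.5 CPM in siNC libraries at 48 h, a log2 change of 0.68 ± 0.06 (edgeR adjusted p = 3.4e-21) that was the largest of the called regulators. At 24 h it was not called. MAFK had log2 changes of -0.19 at 24 h (edgeR adjusted p = 0.024) and 0.13 at 48 h (edgeR adjusted p = 0.013), and the difference between the times was called (edgeR adjusted p = 6.0e-04). Neither MAFK call within a time held with DESeq2 (adjusted p = 0.11 at 24 h and 0.074 at 48 h). CUL3, the ligase scaffold used by KEAP1, was higher at 48 h by 0.19 on the log2 scale (edgeR adjusted p = 1.0e-04). SQSTM1, the autophagy receptor p62 that can sequester KEAP1, was lower at 24 h by a log2 change of -0.12, at 485, 469 and 455 CPM in siANLN libraries and 511, 503 and 518 CPM in siNC libraries. In the 48 h table SQSTM1 is listed at 0.90 to 1.61 CPM in every library, so its 48 h change is not described. It remains among the 46 genes tested and the 17 not called at 48 h, and in their median. The part of the counting in its step between the tables was not tested.

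Of the 10 genes of glutathione supply and use, 6 were tested at 24 h and 5 at 48 h. At each time 3 were called, and all were lower, beside 4.86% of all tested genes called lower at 24 h and 21.3% at 48 h. GSR, the glutathione reductase that restores reduced glutathione, stood at 130, 135 and 131 CPM in siANLN libraries and 165, 166 and 166 CPM in siNC libraries at 24 h. The 48 h levels of GSR were 132, 140 and 131 CPM in siANLN libraries and 244, 251 and 249 CPM in siNC libraries. Its libraries were tightly grouped and the groups far apart at 48 h. The log2 change of GSR was -0.33 ± 0.04 at 24 h (edgeR adjusted p = 8.1e-10) and -0.89 ± 0.03 at 48 h (edgeR adjusted p = 9.4e-88). It was the lowest of the tested genes of the list at 48 h. The cystine importer has a transport subunit and a heavy chain. SLC7A11, the transport subunit, had log2 changes of -0.38 ± 0.09 at 24 h (edgeR adjusted p = 0.0015) and -0.15 at 48 h, where it was not called. SLC3A2, the heavy chain it shares with other carriers, was lower at both times, with log2 changes of -0.15 at 24 h and -0.35 at 48 h. GSTP1, a glutathione transferase, was lower at 48 h by a log2 change of -0.16. MGST1, GSTM3, GSTA4 and GLRX were not tested at either time. GPX2, a glutathione peroxidase, was not called at 24 h and not tested at 48 h. Its 48 h counts summed to 9 in siANLN libraries and 45 in siNC libraries, without overlap. On these few counts its difference between the times was called, at -1.95 on the log2 scale (edgeR adjusted p = 0.045).

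Of the 5 thioredoxin and peroxiredoxin genes, 0 were called at 24 h by edgeR, 0 by DESeq2, and 0 at an unadjusted edgeR p under 0.05. Over all tested genes edgeR called 10.8% at 24 h and 43.6% at 48 h, so counts among so few genes are not read as a result. SESN2, also of this role, had 398 to 507 counts per library at 24 h. In the 48 h table it had 1 count or fewer in every library and was not tested, which left 4 genes. At 48 h TXN, thioredoxin itself, had a log2 change of -0.10 (edgeR adjusted p = 0.0023) and PRDX6, a peroxiredoxin, one of 0.12 (edgeR adjusted p = 0.0012). Both changes were small beside that of TXNRD1, the reductase of the same system. Among the genes of NADPH supply, ME1, malic enzyme, was higher in siANLN cells, at 34.9, 32.6 and 35.5 CPM in siANLN libraries and 21.7, 24.3 and 24.6 CPM in siNC libraries at 48 h, with log2 changes of 0.32 ± 0.08 at 24 h (edgeR adjusted p = 0.0034) and 0.55 ± 0.07 at 48 h (edgeR adjusted p = 1.9e-12). PGD and IDH1, which also make NADPH, and TKT of the pentose phosphate pathway were lower at 48 h, with log2 changes between -0.16 and -0.11.

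Of the 12 genes of carbonyl and xenobiotic detoxification, 9 were tested at each time. Of these, 3 were called at 24 h and 7 at 48 h, all of them lower. Of all tested genes, 4.86% were called lower and 5.93% higher at 24 h, and 21.3% lower and 22.2% higher at 48 h. The same shares stand beside the counts of the haem, iron and efflux genes below. With DESeq2, 2 were called lower at 24 h and 5 at 48 h. UGDH, which makes the sugar donor for glucuronidation, stood at 48.1, 54.0 and 48.5 CPM in siANLN libraries and 72.3, 70.7 and 71.9 CPM in siNC libraries at 24 h. It had log2 changes of -0.51 ± 0.06 at 24 h (edgeR adjusted p = 3.2e-11) and -0.67 ± 0.05 at 48 h (edgeR adjusted p = 1.0e-31). OSGIN1, an oxidative stress-induced growth inhibitor, had a log2 change of -0.53 at 24 h (edgeR adjusted p = 0.026; 0.13 with DESeq2), and PIR, the iron-binding protein pirin, one of -0.50 at 48 h (edgeR adjusted p = 5.0e-10). AKR1C2, AKR1C3 and ALDH3A1 were not tested at either time. Of the 6 genes of haem and iron, FTH1 was lower at 24 h, and FTH1, FTL and SLC48A1 were lower and FECH higher at 48 h. FTH1, the ferritin heavy chain that stores iron, had log2 changes of -0.19 ± 0.04 at 24 h and -0.34 ± 0.02 at 48 h, and FTL, the light chain, one of -0.24 ± 0.03 at 48 h. FECH, which inserts iron into protoporphyrin to make haem, had a 48 h log2 change of 0.20 (edgeR adjusted p = 0.0063; 0.064 with DESeq2). Of the 5 efflux transporters, 4 were tested at 24 h and 5 at 48 h, and 2 were lower at 24 h and 3 at 48 h. With DESeq2, 2 were lower at each time. ABCC3, an exporter of conjugates, had log2 changes of -0.44 ± 0.11 at 24 h and -0.65 ± 0.07 at 48 h (edgeR adjusted p = 0.0018 and 9.6e-18). ABCC1, a glutathione conjugate exporter, had changes of -0.21 and -0.39. It stood at 85.6 to 93.6 CPM in siANLN libraries and 98.2 to 109.5 CPM in siNC libraries at 24 h. In the 48 h table it stood at 11.6 to 13.03 CPM in siANLN libraries and 14.95 to 16.6 CPM in siNC libraries. The part of the counting in this step was not tested.

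With limma on the deposited FPKM, 7 genes of the list were called at 24 h rather than 15, and 839 of all genes rather than 1585 with a pseudocount of 0.1. Of the 55 genes, 40 had a promoter window and 15 of those held the core TGACNNNGC. Of the genes of the list named here, these were MAFF, SLC3A2, GSTP1, GSTA4, ME1, PGD, IDH1 and FECH.

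**Figure D5:**
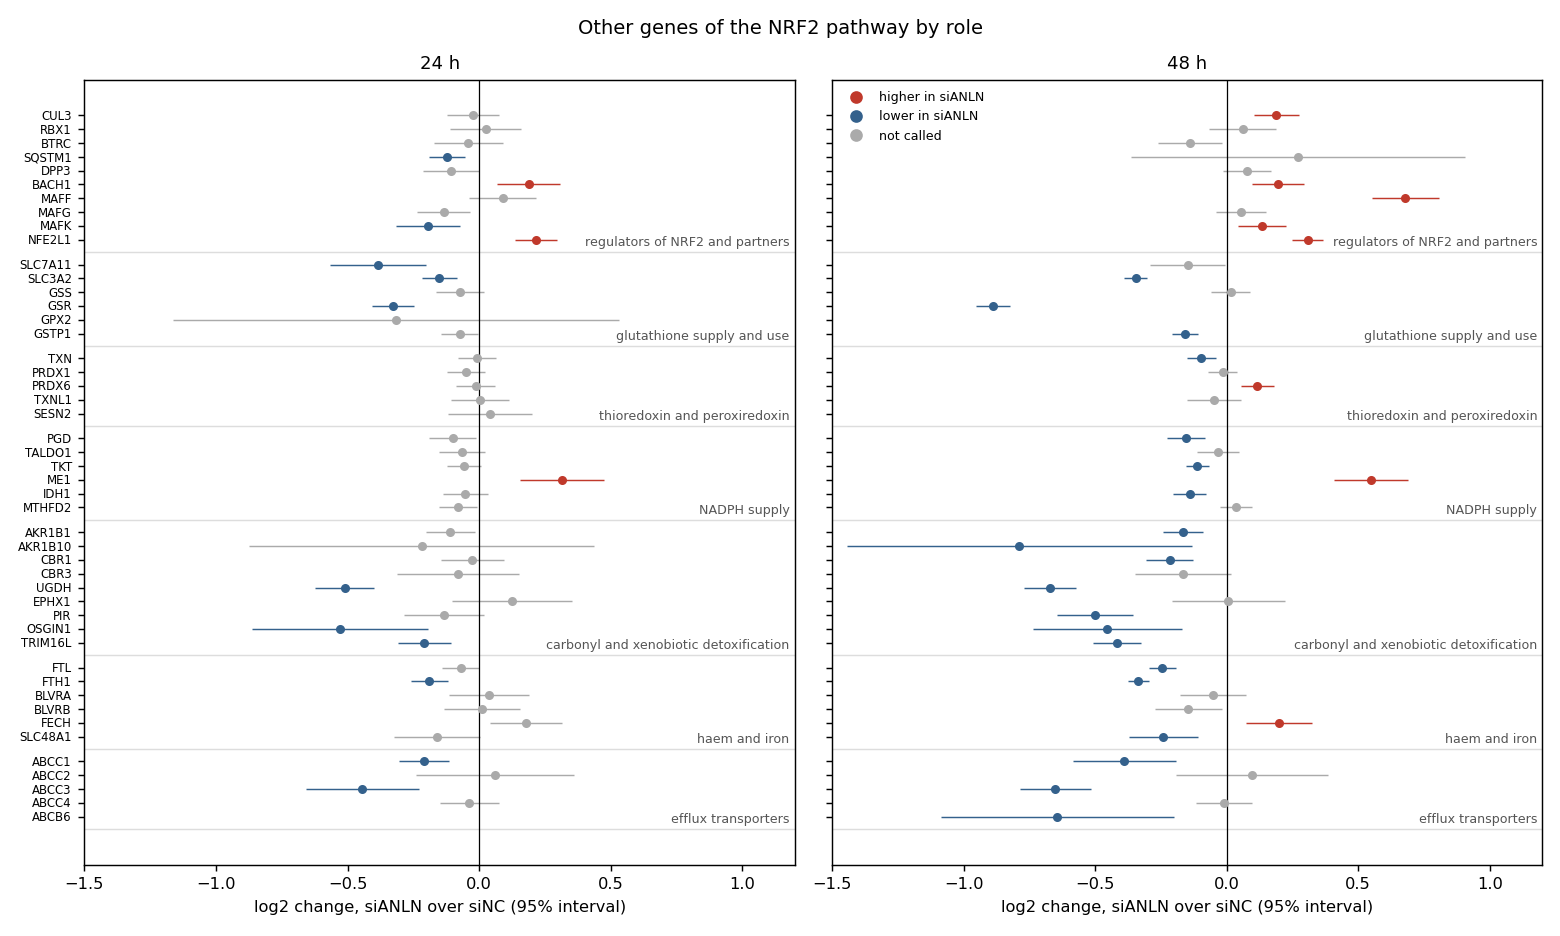
Log2 change of siANLN over siNC with its 95% interval for genes of the wider pathway list, grouped by role, at 24 h (left) and 48 h (right), with genes called higher in red, called lower in blue and not called in grey; genes not tested at a time have no point. MAFF and ME1 stand highest and GSR, UGDH and ABCC3 among the lowest at 48 h, and SQSTM1 at 48 h has the wide interval of a gene with about 1 CPM.

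Over the 12 libraries and 10488 genes, with log2 CPM centred within each time, the genes whose levels ran most like NFE2L2 were UAP1 (Pearson r = 0.98), MGAT2 (0.98) and C16orf58 (0.97). For NQO1 they were ABHD2 (0.99), EXOC6 (0.99) and PLAGL2 (0.98), and for HMOX1 PFKP (0.97), FAM83G (0.96) and RSL1D1 (0.92). None of these 9 genes is in the pathway list. These r values describe likeness over libraries that share the knockdown contrast, and carry no test.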

How the data were processed

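Poly(A) RNA-seq of KYSE150 cells was deposited as 1 table of counts per gene and 1 table of FPKM for each time. Per the submitters' processing notes, the authors used cutadapt 1.18, STAR 2.7.3a, featureCounts and DESeq2 1.44.0 with GRCh38; the annotation release and strand setting are not given in the sources used here. FPKM are the authors' deposited length-scaled values. Gene IDs repeated in the 48 h table held identical values and were kept once (38318 of 38561 lines).

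The deposited counts were fitted per time with edgeR 4.0.16 in R 4.3.3 (TMM, filterByExpr, robust quasi-likelihood F test, two-sided), with Benjamini-Hochberg adjustment over all genes tested and a threshold of 0.05. The difference between the times was a contrast over all 12 libraries in gene IDs of both tables. An SE is the log2 change divided by the square root of F, and 95% intervals use the fit's degrees of freedom. The fit was tested on simulated data. Alternatives were DESeq2 1.42.0, other scaling, no filter, limma 3.58.1 on log2 FPKM, a replicate block and leaving out each library.

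The genes, lists and tests were chosen with earlier results of these data known. Beyond the 9 genes and ANLN, the text names up to 2 called genes per role and time with the largest change among those at 5 CPM or more, called genes of small counts, and the 3 most alike genes for NFE2L2, NQO1 and HMOX1 (log2 of CPM plus 0.5). A gene counted in the totals of the wider list is not reported here. The gene with a double identifier, TRIM16L, was matched by its 24 h ID. Coordinates are from GENCODE release 29, promoters from RefSeq GRCh38.p14. The marker lists held 4 to 8 genes each; the endothelial list summed to 2.10 CPM or less in every library. Common biological variation was 3.90% at 24 h and 2.00% at 48 h. Library pairs within a group differed by more than sampling noise (chi-square per degree of freedom 1.27 to 2.72).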

Additional observations from a re-analysis of the deposited data

Results flagged for a closer look

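The effect of siANLN differed between 48 h and 24 h by a test of the difference itself (edgeR, adjusted over 17625 genes) for 6 genes. The change at 48 h minus the change at 24 h, on the log2 scale, was 0.22 for NFE2L2, which was less far down at 48 h. It was -0.32 for KEAP1, -0.36 for GCLC, -0.18 for GCLM, -0.14 for TXNRD1 and -0.14 for NQO1, all of which were further down at 48 h. The tables of the times were made separately, and the part of that in these differences was not tested. With 3 libraries in each group, no group was large enough for the check on single stray samples.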

How the results depend on the processing

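No value turned its direction under any alternative run. At 24 h 109 single-gene values kept their side of the threshold and 8 lost the call, at 48 h 112 and 5, and for the difference between the times 125 and 19. At 24 h limma on FPKM called 7 genes of the wider list rather than 15 with either pseudocount, and 839 (pseudocount 0.1) and 822 (pseudocount 1) of all genes rather than 1585; the cause was not tested. The count of genes called for the difference, 6, was 3 with no filter on low counts and ran from 3 to 6 when single libraries were left out. GCLM was the least stable of these, with an adjusted p of 0.13 with DESeq2. Libraries of the same number showed no shared deviation (correlations of -0.01 to 0.03), and the main fits did not pair them. With 3 libraries per group this check cannot show whether they were handled in pairs. With the replicate block 7 genes were called at 24 h, 8 at 48 h and 6 for the difference, and 1772, 7355 and 2392 of all genes. DESeq2 called 6 of the genes at 24 h and 7 at 48 h, all lower, without GCLM at 24 h and HMOX1 at 48 h. With counts this low, a change in AKR1C1 could not be measured (adjusted p = 0.40 at 24 h and 0.17 at 48 h with no filter), and HMOX1 at both times and SRXN1 at 24 h carry the widest errors.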

Other observations

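A divergent transcript beside NQO1, NQO1-DT (ENSG00000262136), named after its values were seen, had 2, 8 and 7 counts in siANLN libraries and 12, 6 and 4 counts in siNC libraries at 24 h. In the 48 h table it had 583, 539 and 615 counts in siANLN libraries and 779, 775 and 780 counts in siNC libraries. It was lower in siANLN cells at 48 h, with a log2 change of -0.43 ± 0.05 (edgeR adjusted p = 1.6e-13), beside -0.29 for NQO1 itself. AC092115.2, antisense to NQO1, had 0 counts in every 24 h library and 520 to 755 at 48 h, and AL033397.2, antisense to GCLC, had 0 to 17 at 24 h and 259 to 387 at 48 h. Whether reads of the sense genes enter these counts was not tested.

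As a description with no test, the ratio of GCLC to GCLM in FPKM lay between 0.66 and 0.70 in siANLN libraries and between 0.79 and 0.82 in siNC libraries at 48 h, without overlap. At 24 h it lay between 0.57 and 0.61 in siANLN libraries and between 0.60 and 0.64 in siNC libraries, with overlap. The ratio of BACH1 to NFE2L2 in FPKM lay between 0.42 and 0.43 in siANLN libraries and between 0.25 and 0.29 in siNC libraries at 24 h, and between 0.34 and 0.38 in siANLN libraries and between 0.26 and 0.28 in siNC libraries at 48 h. A ratio within a library shows unequal change of the genes and does not say which of them changed.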
